A study of Mus musculus with 12 samples.

Results

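The 42 genes described here build and copy centrioles or build and maintain the primary cilium, and they were listed by name for these roles and not by any measured value. All 42 were found once each among the 53379 genes of the count tables, and all 42 passed the filter on low counts and are among the 13442 genes tested. They were sorted into 8 role groups: centriole duplication (12 genes), centriole capping (2), pericentriolar material and microcephaly (6), distal appendages and transition zone (7), intraflagellar transport (6), the BBSome (3), ciliary hedgehog and cargo regulators (4) and planar polarity effectors (2). Centrioles are the barrel-shaped microtubule structures at the core of the centrosome, which organises the spindle in dividing cells, and the older centriole of a cell docks at the membrane as the basal body of its primary cilium. A dividing cell copies its centrioles once per cycle. Granule neuron precursors of the cerebellum carry a primary cilium through which they receive Sonic hedgehog, the signal that keeps them dividing, and they must take the cilium down and duplicate its centrioles in each cycle. Loss of many centriole genes gives microcephaly, and loss of many cilium genes gives cerebellar malformations such as Joubert syndrome.

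RNA came from laser-captured external granule layer (EGL) of the central lobules of the cerebellum of C57BL/6 mice on postnatal day 6, where the precursors divide. One group had a conditional knockout of SnoN, a SMAD-binding transcriptional regulator encoded by Skil, and the other was wild-type littermates, with 6 libraries each. The driver of the knockout and the deleted part of Skil are not named in the labels, nor is it said that the libraries are from different animals, so each p refers to the spread among libraries. Wild-type libraries 1, 3, 5, 6 and 7 (WT1 and so on) were compared with knockout libraries 2, 3, 5, 6 and 8 (KO2 and so on), and WT2 and KO4, which the submitters marked as outliers, are given beside them. KO2 carries a wild-type genotype tag under a knockout title, and the title was followed. Library values are listed in the order WT1, WT3, WT5, WT6, WT7 for wild type and KO2, KO3, KO5, KO6, KO8 for knockout.

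The deposited gene counts summed to between 7520076 and 15083086 per library. Skil lay at 38.5 to 57.8 CPM in the 5 wild-type libraries (CPM, counts per 1e+06 after TMM scaling between libraries), against 20.9 to 36.7 CPM in the 5 knockout libraries, with KO2 at 36.1 CPM. The marked libraries followed their labels for Skil, with the highest value of the 12 in WT2 (76.5 CPM) and the lowest in KO4 (14 CPM). The ranges of the 5 and 5 libraries did not overlap, and the log2 fold change of -0.70 had an adjusted p of 0.124 in edgeR's test. The EGL markers were present, with Atoh1, the transcription factor that defines granule precursors, at 92.2 ± 16.7 CPM in wild type (SD, n = 5). The libraries also differed by GC content of the genes: KO2, KO3 and KO8 held more reads of GC-poor genes than the 5 wild-type libraries did, and WT2 and KO4 went the reverse way. Genes of at most 44.3% GC averaged 0.27, 0.28 and 0.22 log2 units above the mean of the 10 libraries in KO2, KO3 and KO8, and 0.50 above it in WT2. They were at -0.24 in KO4, at 0.02 and -0.18 in KO6 and KO5, and between -0.31 and 0.01 in the 5 wild-type libraries. Main results below are therefore given also after taking the trend of log2 CPM on GC content in each library as an offset (the GC offset).

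Some of the promoters hold motifs of regulators known to drive cell cycle genes or cilium genes. Stretches that carry them are shown as a description. Promoter windows (250 bases before to 50 after the start, RefSeq, GRCm38.p6) were matched for 36 of the 42 genes. The core of the E2F site, searched as GCGGGAA on both strands, was found in 7 of the 36 (19.4%), against 5.29% of the 27025 genes in the table. Those 27025 genes were not limited to the 13442 genes tested here, among which all 42 lie. The shares of this and the other motifs are therefore not like for like, and enrichment was not tested. These were Plk4, Stil, Cep152, Cep57, Wdr62, Pcnt and Ift140, of which all but Ift140 are centriole or pericentriolar genes. The stretches are given 5′ to 3′ on the gene's strand for 4 of them, with the core in capitals, which is the reverse complement in Cep57, Cep152 and Wdr62.
Plk4, chr3:40799805-40799863, plus strand: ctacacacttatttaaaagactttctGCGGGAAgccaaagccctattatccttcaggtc
Cep57, chr9:13827172-13827230, minus strand: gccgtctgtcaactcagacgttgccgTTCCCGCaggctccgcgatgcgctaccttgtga
Cep152, chr2:125625255-125625313, minus strand: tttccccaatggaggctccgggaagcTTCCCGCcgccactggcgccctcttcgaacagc
Wdr62, chr7:30280411-30280443, minus strand: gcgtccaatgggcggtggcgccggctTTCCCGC

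The X-box, the site of the RFX factors that drive cilium genes, was searched as GTTGCC, any 2 bases and GG, on both strands. It was found in 5 of the 36 genes (13.9%), against 2.59% of all genes in the table. Of the 5, Tctn1 and Tctn2 (transition zone), Bbs1 (BBSome) and Intu (planar polarity effector) are cilium genes and Spice1 is a centriole gene. The match is in capitals, on the gene's strand in Tctn1, Tctn2 and Bbs1 and as the reverse complement in Spice1 and Intu.
Tctn1, chr5:122264411-122264432, minus strand: ctgtgactGTTGCCCGGGcaac
Tctn2, chr5:124598754-124598779, plus strand: gattggtgGTTGCCATGGctgcaggc
Bbs1, chr19:4906609-4906634, minus strand: ctgagctgGTTGCCAAGGcgacgcct
Intu, chr3:40540695-40540756, plus strand: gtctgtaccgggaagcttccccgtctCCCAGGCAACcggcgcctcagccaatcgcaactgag
Spice1, chr16:44347391-44347416, plus strand: tctggtaaCCCAGGCAACggcccgga

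The E2F core and the X-box shared no gene among the 36. The core of the cell cycle homology region, searched as TTTGAA on both strands, was in 6 of the 36 (16.7%) against 20.2% of all genes. Genes that shared a motif did not share a direction in knockout: the 7 with the E2F core ran from a log2 fold change of -0.85 to 0.40, with 4 of them higher, and the 5 with the X-box from -0.51 to 0.20, with 3 higher. A match of letters is a description of the window and not a measured binding site.

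In wild-type EGL the 42 genes spanned a wide range of levels, compared here per length as CPM per kilobase of exon (CPM/kb). The highest were Cep57, a centrosome protein that partners Cep63, at 26.4 ± 2.92 CPM/kb (SD, n = 5) and Ccp110, which caps the centriole's distal end, at 24.8 ± 2.60 CPM/kb. Those levels differed by less than their SDs, and both lay above Plk4, the kinase that starts centriole duplication, at 16.6 ± 1.60 CPM/kb. Next came Kif3a, a motor subunit that carries cargo into the cilium, at 9.73 ± 0.588 CPM/kb, the spindle pole protein Aspm at 7.46 ± 1.22 CPM/kb and the distal centriole protein Ofd1 at 5.76 ± 0.732 CPM/kb. These 6 genes were above 5 CPM/kb, 13 were below 1 CPM/kb, and the median of the 42 was 1.60 CPM/kb. Partners of Plk4 in duplication were lower than it. Stil, which Plk4 phosphorylates to start a cartwheel, was at 3.04 ± 0.883 CPM/kb, and Sass6, the cartwheel hub, at 0.797 ± 0.118 CPM/kb. Cep152 and Cep192, which bring Plk4 to the parent centriole, were at 0.686 ± 0.0631 and 1.17 ± 0.0590 CPM/kb. The group of distal appendages and transition zone, the gate at the base of the cilium, held the lowest levels, with a median of 0.731 CPM/kb and Tctn1 the lowest of all at 0.345 ± 0.129 CPM/kb. Intraflagellar transport genes had a median of 2.78 CPM/kb. Tctn1 and Wdr62 had the smallest counts, with a lowest library of 10 and 8 reads, so their library values carry the most counting error.

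**Figure D1:**
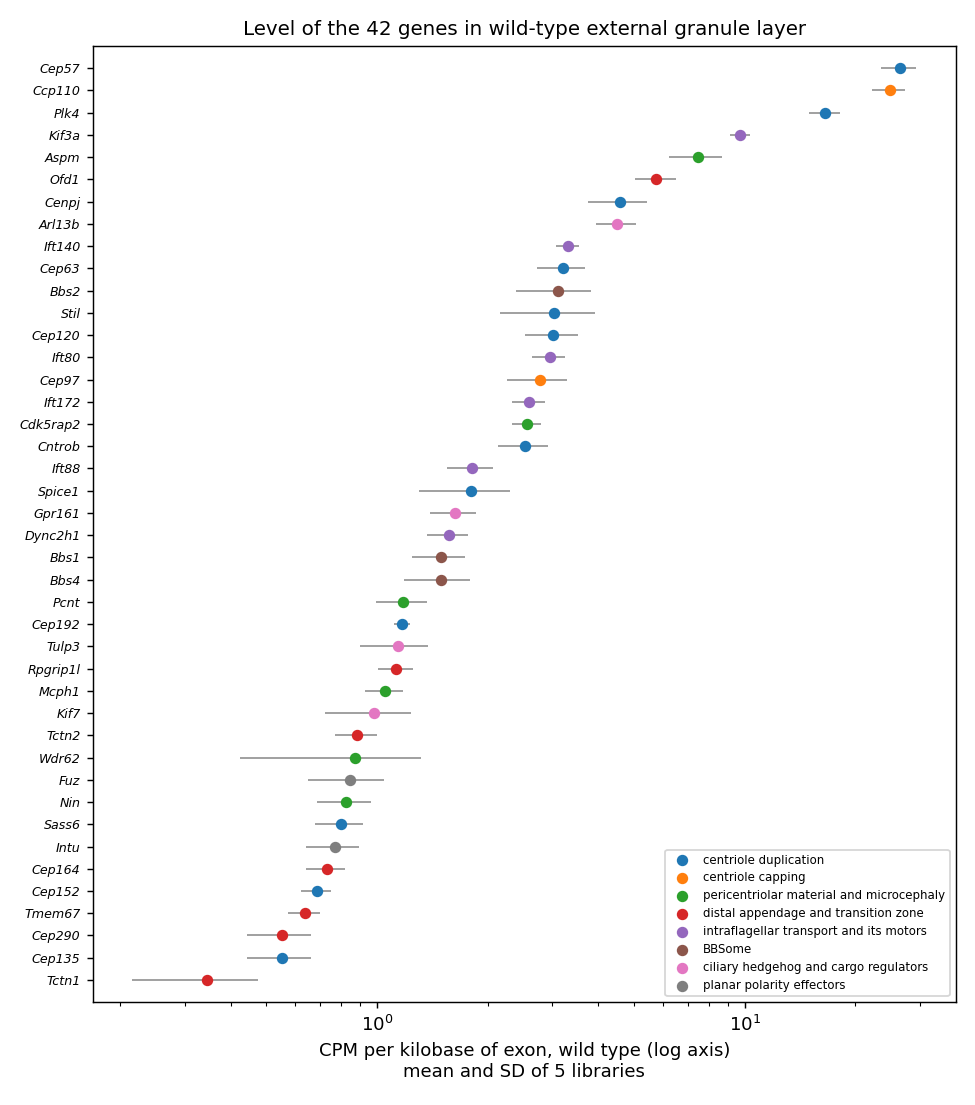
Level of each of the 42 genes in wild-type external granule layer as CPM per kilobase of exon on a log axis, with points for the mean and bars for the SD of 5 libraries, coloured by role. Cep57, Ccp110 and Plk4 stand at 16.6 to 26.4 CPM/kb and Tctn1 at 0.345 CPM/kb.

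No gene of the 42 passed an adjusted p of 0.05 between knockout and wild type in edgeR's quasi-likelihood test with Benjamini-Hochberg adjustment over all 13442 genes, where 0.0223% of all genes passed. Their adjusted p ran from 0.124 (Plk4) to 0.991 (Cep120), and their log2 fold changes from -0.85 (Wdr62) to 0.48 (Cep290), with a median of 0.08 against 0.001 over all genes tested. At an unadjusted p under 0.05, 5 were higher in knockout (11.9% of the 42, against 11.8% of all genes) and 2 were lower (4.76%, against 9.97% of all genes). The 5 higher were Plk4, Cenpj, Cep57, Ccp110 and Aspm, all centriole or centrosome genes, and the 2 lower were Wdr62 and Ift172. The shares are those of the whole transcriptome or below it. Means were higher in knockout for 29 of the 42 genes, against 50.1% of all genes. With the GC offset 2 were higher (Plk4, Cenpj) and 2 lower (Sass6, Ift80) at an unadjusted p under 0.05, where 7.52% and 8.01% of all genes were, and 0 of 42 passed the adjusted threshold, which 0.0372% of all genes did. Among all 12 libraries 1 was higher (Cenpj) and 0 lower at that unadjusted level, where 1.91% and 1.55% of all genes were, and 0 of 42 passed the adjusted threshold, which 0.00751% of all genes did. Leaving out KO5 alone took the count past the adjusted threshold to 7 of the 42 (16.7%), 6 higher and 1 lower, in a fit where 22.9% of all genes passed. That fit had no GC offset, and KO5 was the unmarked knockout library lowest in GC-poor genes (-0.18 log2 units). In these bulk libraries, fewer cells of a type and less RNA per cell cannot be told apart.

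**Figure D2:**
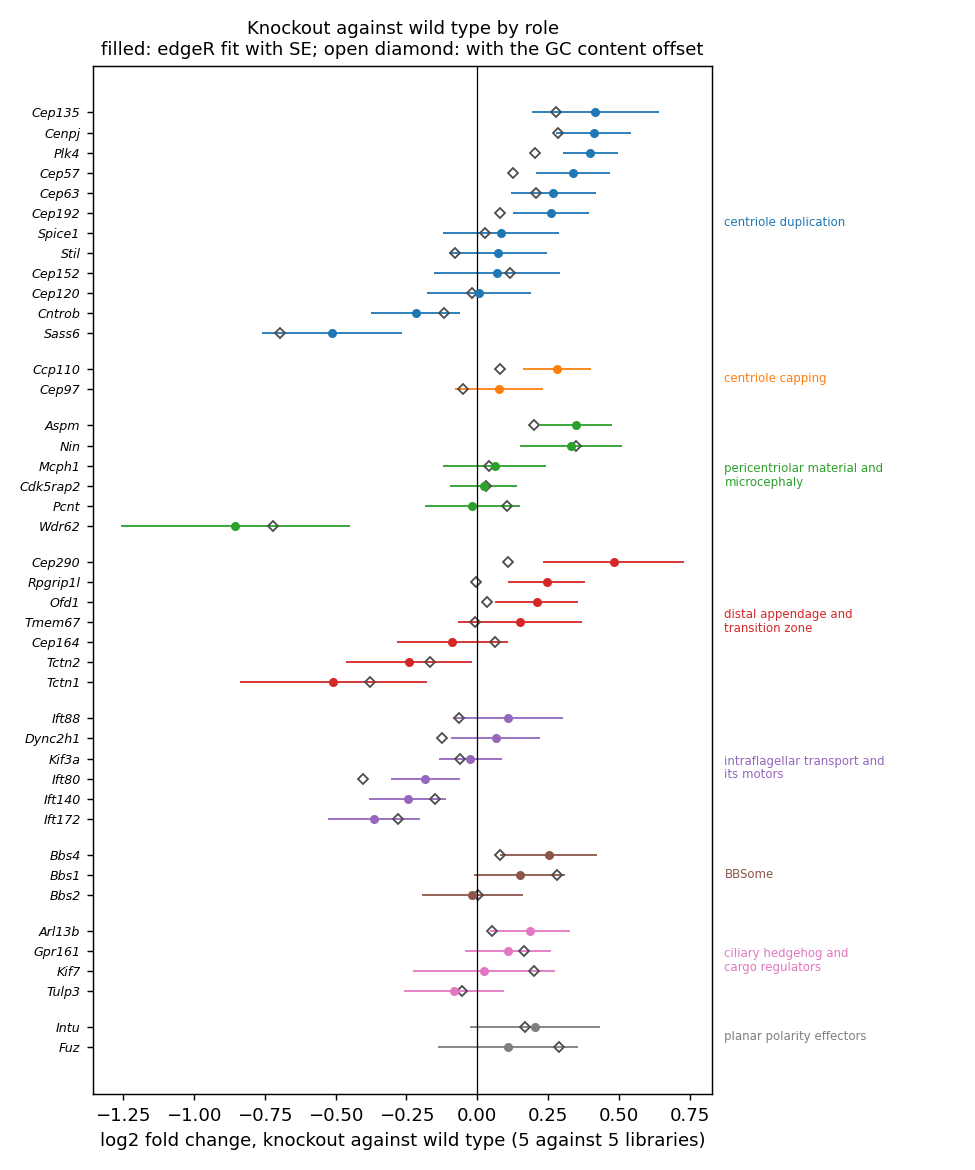
Log2 fold change of each gene between knockout and wild type, 5 against 5 libraries, by role: filled points with SE bars are from edgeR's fit, and open diamonds from the fit with the GC offset. Duplication genes lie mostly right of 0 and intraflagellar transport genes mostly left of it, and the diamonds lie closer to 0 for the GC-poor genes Cep290, Plk4, Cep57 and Ccp110.

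In the centriole duplication group 10 of 12 genes had higher means in knockout, with a group median log2 fold change of 0.17 (0.10 with the GC offset). Plk4 (GRCm38 chromosome 3, 40800019 to 40816883, plus strand) had the smallest p of all 42. It read 113, 133, 109, 109 and 107 CPM across wild type, and 161, 159, 134, 146 and 152 CPM across knockout. Every knockout library lay above every wild-type library, though KO5 exceeded WT3 by little, and Plk4 was the only gene of the 42 whose groups did not overlap (2.38%, against 2.35% of all genes). The two-sided exact permutation p was 0.00794, the smallest that 5 against 5 libraries can give. Means were 114 ± 11 and 150 ± 10.8 CPM (wild type and knockout; SD, n = 5 each), or a log2 change of 0.40 (SE 0.10) that is 1.32-fold, but the adjusted p of 0.124 in edgeR's test did not pass. The marked libraries had the reverse order, WT2 at 154 and KO4 at 101 CPM. With the GC offset the log2 fold change was 0.20 (SE 0.08, adjusted p = 0.265), and with all 12 libraries 0.24 (adjusted p = 0.999). Plk4 passed in DESeq2 (adjusted p = 0.0136, where 3.34% of all genes passed), without the filter on low counts (0.0271, where 3.49% passed) and without KO5 (0.00268, where 22.9% passed), and over all alternatives its adjusted p ran up to 1. Plk4 lies 9.68 megabases from the targeted gene Skil on the same chromosome, and Intu, its neighbour on the list, 9.41 megabases from it.

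Cenpj, a tubulin-binding protein that lets new centrioles elongate, was at 20.5, 29.6, 20.8, 20.4 and 20.4 CPM across wild type, and at 32.5, 27.4, 29.9, 28.3 and 30.2 CPM across knockout. The other 4 wild-type libraries fell between 20.4 and 20.8 CPM, and only WT3 reached the knockout range. Its log2 fold change was 0.41 (SE 0.13, adjusted p = 0.137 in edgeR's test), with 0.29 under the GC offset and 0.32 in all 12 libraries. It passed without KO5 (adjusted p = 0.0336), and its adjusted p over the other alternatives ran from 0.0539 to 1. Both marked libraries were near the knockout mean, WT2 at 32.3 and KO4 at 31.1 CPM.

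Cep57 was at 105, 129, 110, 96.1 and 110 CPM across wild type. It was at 158, 158, 98.5, 124 and 157 CPM across knockout. KO2, KO3 and KO8 were thus above every unmarked wild-type library, while KO5 was among the lowest of the 10. The log2 fold change of 0.34 (SE 0.13, adjusted p = 0.165 in edgeR's test) was 0.13 with the GC offset, and WT2 held the highest value of all 12 libraries at 192 CPM. Without KO5 it passed (adjusted p = 0.00494 in edgeR's test).

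Cep192, the scaffold that recruits Plk4, was at 14.3, 15.4, 13.9, 15.5 and 14.1 CPM across wild type, and at 19.2, 16.5, 20.1, 16.7 and 15.3 CPM across knockout, so that only KO8 reached into the wild-type range. This gave a log2 change of 0.26 (SE 0.13, adjusted p = 0.260 in edgeR's test) and 0.08 with the GC offset. Cep135, which joins the cartwheel to the centriole wall, was at 3.69, 3.57, 4.14, 3.22 and 5.23 CPM across wild type. It was at 6.13, 5.14, 5.26, 3.91 and 6.19 CPM across knockout. WT7 exceeded KO3, and KO6 fell among the wild-type values, and WT2 and KO4 lay at the far ends in reverse order, 9.22 and 3.02 CPM. With both marked libraries in the fit its log2 fold change went from 0.42 (SE 0.22) to 0.04, and it was 0.28 with the GC offset.

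Sass6, the cartwheel hub, went the other way from Plk4. It was at 3.76, 5.30, 4.59, 5.20 and 5.56 CPM across wild type, and at 3.21, 4.01, 4.81, 2.67 and 2.37 CPM across knockout. The ranges overlapped through WT1, WT5, KO3 and KO5. Its log2 fold change was -0.51 (SE 0.25, adjusted p = 0.236 in edgeR's test) and -0.70 with the GC offset (adjusted p = 0.232). Sass6 and Plk4 have nearly the same GC content, 42.7% and 42.9%. The smaller part of the exon bases of Sass6 overlaps Gm42893 and Trmt13 on the opposite strand, and the strand setting of the counting was not given, so reads there may belong to either gene. The other duplication genes gave log2 fold changes between -0.22 and 0.27. They were Cep63 (30.7 ± 4.59 against 37.1 ± 8.09 CPM in wild type and knockout; SD, n = 5 each), the daughter centriole protein Cntrob (16.9 ± 2.59 against 14.5 ± 2.49 CPM), Stil (17.6 ± 5.12 against 18.4 ± 1.80 CPM), Cep152 (3.96 ± 0.364 against 4.15 ± 0.758 CPM), the spindle and centriole protein Spice1 (9.76 ± 2.69 against 10.3 ± 2.47 CPM) and Cep120, which helps centrioles elongate. The last, at 20.8 ± 3.43 and 20.9 ± 5.70 CPM, had a log2 fold change of 0.01 (SE 0.18).

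Ccp110 and Cep97 form the cap that must leave the mother centriole before a cilium can grow. Ccp110 was at 199, 235, 217, 191 and 181 CPM across wild type. It was at 286, 241, 190, 228 and 297 CPM across knockout. KO2, KO3 and KO8 were above all 5 wild-type libraries and KO5 and KO6 within them, the same division of the knockout libraries as for Cep57. This gave a log2 change of 0.28 (SE 0.12, adjusted p = 0.193 in edgeR's test), 0.08 with the GC offset and 0.14 in all 12 libraries. Without KO5 it passed (adjusted p = 0.0133 in edgeR's test). Its partner Cep97 was at 25.4 ± 4.70 (wild type) and 26.7 ± 5.0 CPM (knockout; SD, n = 5 each), or a log2 change of 0.08 (SE 0.15).

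**Figure D3:**
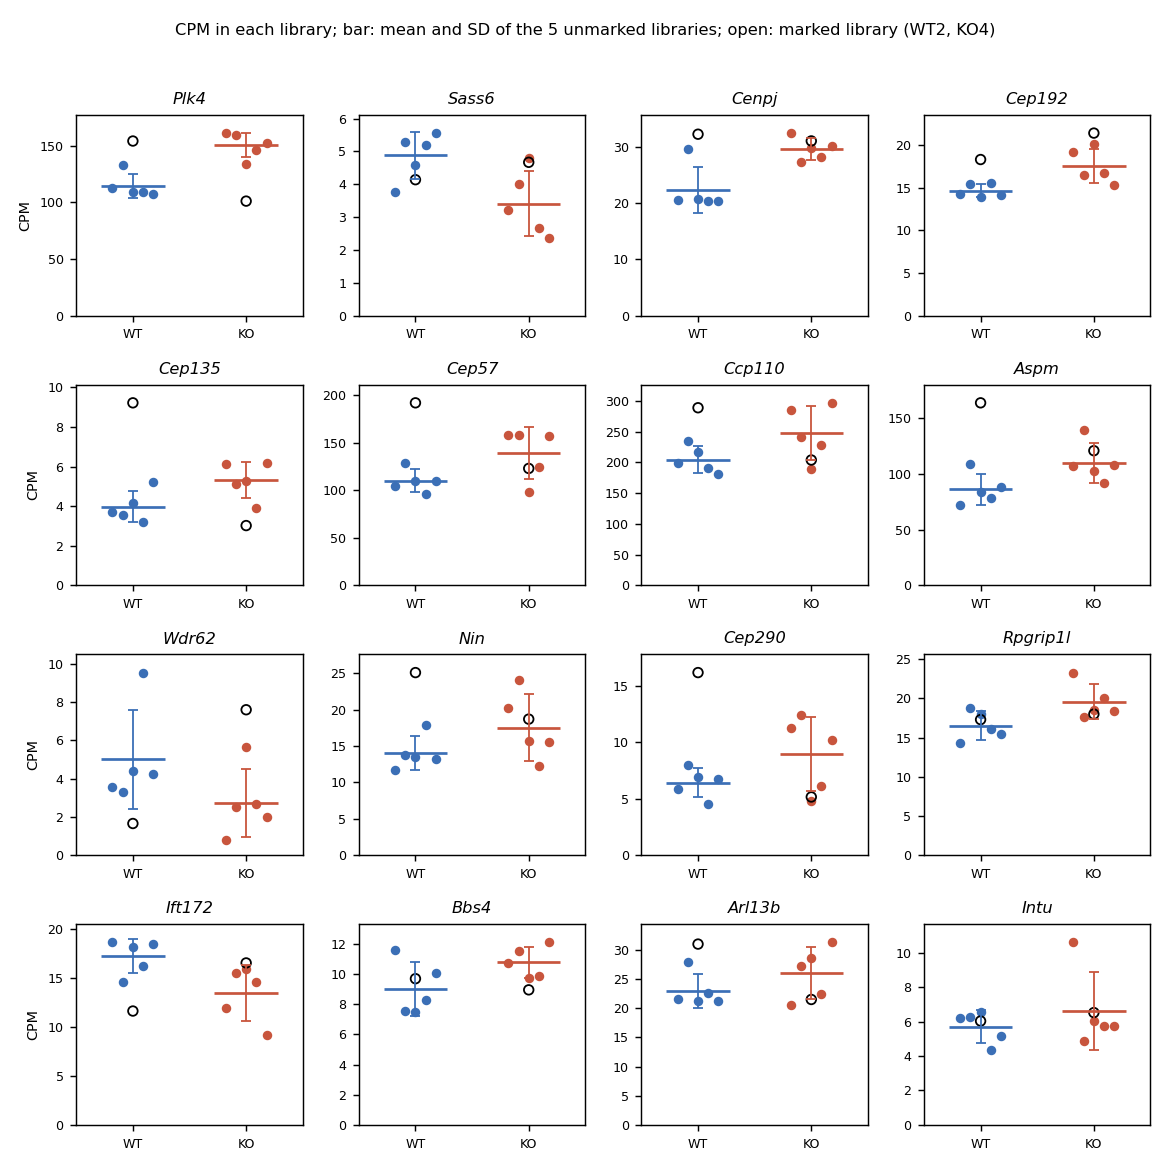
CPM in each library for the 16 genes with the smallest p overall or in their role group, with a bar for the mean and SD of the 5 unmarked libraries of a group and an open circle for its marked library (WT2 or KO4). Only Plk4 has all 5 knockout points above all 5 wild-type points, and its open circles lie in the reverse order at 154 and 101 CPM.

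The pericentriolar and microcephaly genes went in both directions, with 4 of 6 means higher and a group median log2 fold change of 0.04 (0.07 with the GC offset). Aspm, which holds spindle poles together and is mutated in the most common form of inherited microcephaly, was at 72.1, 109, 84.1, 78.8 and 88.0 CPM across wild type, and at 107, 140, 103, 92.1 and 108 CPM across knockout. WT3 reached into the knockout range and the other 4 wild-type libraries stayed below it. Its log2 fold change was 0.35 (SE 0.13, adjusted p = 0.158 in edgeR's test), 0.20 with the GC offset and 0.17 in all 12 libraries, with WT2 at 164 CPM and KO4 at 121 CPM. Leaving out KO5 brought its adjusted p to 0.0345 in edgeR's test.

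Wdr62, a spindle pole scaffold, had the lowest log2 fold change of the 42. It was at 3.54, 3.28, 4.41, 9.53 and 4.25 CPM across wild type, and at 0.779, 2.52, 5.62, 2.67 and 2.01 CPM across knockout. WT6 and KO5 stood far above the rest of their groups, and the other 4 knockout libraries lay below every wild-type library. This gave a log2 change of -0.85 (SE 0.40, adjusted p = 0.228 in edgeR's test). It ran from -1.30 without KO5 (adjusted p = 0.0139) to -0.51 over the fits that each left out 1 library. In all 12 libraries it was -0.32, with WT2 at 1.65 and KO4 at 7.59 CPM, and its exons overlap Thap8 on the opposite strand.

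Nin, a protein of the subdistal appendages that anchors microtubules, was at 11.7, 13.8, 13.5, 17.9 and 13.2 CPM across wild type. It was at 20.2, 24.1, 15.7, 12.2 and 15.5 CPM across knockout. KO2 and KO3 were above all wild-type libraries and KO6 below 4 of them. Its log2 fold change of 0.33 (SE 0.18, adjusted p = 0.288 in edgeR's test) was 0.35 with the GC offset. Pcnt, the main scaffold of the pericentriolar material, was at 14.3 ± 2.26 and 14.1 ± 2.84 CPM, Cdk5rap2, which tethers gamma-tubulin rings, at 33.3 ± 3.08 and 33.8 ± 4.01 CPM, and Mcph1 at 8.16 ± 0.965 and 8.51 ± 1.66 CPM (wild type and knockout; SD, n = 5 each). For all 3 the difference between means was smaller than either SD.

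The distal appendage and transition zone genes had 4 means higher and 3 lower, and their median was a log2 fold change of 0.15, and -0.003 with the GC offset. Cep290, which bridges the axoneme and the membrane at the ciliary gate, is the most GC-poor of the 42 at 38.3%. It was at 5.85, 8.0, 6.93, 4.58 and 6.74 CPM across wild type, and at 11.3, 12.4, 4.81, 6.17 and 10.2 CPM across knockout. KO2, KO3 and KO8 were above every unmarked wild-type library and KO5 and KO6 were inside the wild-type range, while WT2 was at 16.2 CPM and KO4 at 5.16 CPM. The log2 fold change of 0.48 (SE 0.25, adjusted p = 0.263 in edgeR's test) became 0.11 with the GC offset and 0.06 in all 12 libraries. Leaving out KO5 brought its adjusted p to 0.037 in edgeR's test.

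Rpgrip1l, a scaffold of the same gate, was at 14.3, 18.8, 18, 16.1 and 15.5 CPM across wild type. It was at 23.3, 17.6, 18.5, 20.1 and 18.4 CPM across knockout. The knockout libraries clustered at the upper end of the wild-type range, with KO2 and KO6 above it. Its log2 fold change was 0.25 (SE 0.14, adjusted p = 0.294 in edgeR's test) and -0.003 with the GC offset. The gate proteins Tctn1 (2.86 ± 1.07 and 2.02 ± 0.458 CPM) and Tctn2 (7.36 ± 0.958 and 6.19 ± 2.04 CPM) had lower means, with log2 fold changes of -0.51 (SE 0.33) and -0.24 (SE 0.22). The gate protein Tmem67 had 4.93 ± 0.491 and 5.48 ± 1.42 CPM, Ofd1 25.7 ± 3.26 and 29.7 ± 5.88 CPM, and the distal appendage protein Cep164, which docks the basal body to the membrane, 7.30 ± 0.888 and 6.86 ± 1.39 CPM (wild type and knockout; SD, n = 5 each). With 0.15, 0.21 and -0.09 (-0.008, 0.03 and 0.06 with the GC offset) all 3 had log2 fold changes within 2 SE of 0.

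Intraflagellar transport carries building material along the cilium. Without the GC offset it was the only role group whose median log2 fold change was below 0, at -0.10 (-0.09 in all 12 libraries). With the GC offset its median was -0.14, and that of the distal appendage and transition zone genes was also below 0, at -0.003. That order of the groups was not tested. Ift172, an adaptor of the outward train, was at 18.6, 14.6, 18.1, 16.2 and 18.4 CPM across wild type, and at 11.9, 15.5, 15.9, 14.6 and 9.14 CPM across knockout. KO2 and KO8 were below all wild-type libraries, and the other 3 knockout libraries lay at the low end of the wild-type range, near WT3. This gave a log2 change of -0.36 (SE 0.16, adjusted p = 0.205 in edgeR's test), -0.28 with the GC offset and -0.23 in all 12 libraries. Ift140, of the return train, had 27.6 ± 2.0 (wild type) and 23.3 ± 4.19 CPM (knockout; SD, n = 5 each), or a log2 change of -0.25 (SE 0.14).

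Ift80, another subunit of the outward train, had 36.6 ± 3.79 and 32.2 ± 4.55 CPM (SD, n = 5 each), or a log2 change of -0.18 (SE 0.12). It is GC-poor (42%), and with the GC offset its log2 fold change was -0.40 (adjusted p = 0.219 in edgeR's test), and that adjusted p was the smallest of the 42 in the fit with the offset. Ift88, whose loss removes cilia, had 8.38 ± 1.18 and 9.05 ± 2.08 CPM. The motors Kif3a (34.9 ± 2.11 and 34.3 ± 3.62 CPM) and Dync2h1, the dynein of the return train (25.6 ± 3.27 and 26.8 ± 6.30 CPM), had log2 fold changes of -0.02 (SE 0.11) and 0.07 (SE 0.16). The difference between means was below the SD of each group for these 3 genes.

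The BBSome carries receptors out of the cilium. Bbs4 was at 11.6, 7.52, 7.47, 8.29 and 10.1 CPM across wild type, and at 10.7, 11.5, 9.72, 9.87 and 12.1 CPM across knockout. The 5 knockout libraries fell in the upper part of the wild-type range, with KO8 above it, and the log2 fold change was 0.25 (SE 0.17, adjusted p = 0.393 in edgeR's test) and 0.08 with the GC offset. Bbs1 had 11.4 ± 1.86 and 12.7 ± 1.47 CPM and Bbs2 10.3 ± 2.37 and 10.2 ± 0.935 CPM (wild type and knockout; SD, n = 5 each), with log2 fold changes of 0.15 (SE 0.16; 0.28 with the GC offset) and -0.02 (SE 0.18).

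Among the regulators that link the cilium to hedgehog signalling, Arl13b, a GTPase of the ciliary membrane, differed by 0.19 on the log2 scale (SE 0.14, adjusted p = 0.442 in edgeR's test), by 0.05 with the GC offset and by 0.06 in all 12 libraries. It was at 21.6, 28, 21.3, 22.6 and 21.2 CPM across wild type, and at 20.5, 27.3, 28.6, 22.4 and 31.3 CPM across knockout. WT3 lay among the 3 highest knockout libraries and KO2 below every wild-type library. Gpr161, a receptor in the cilium that restrains the pathway, had 11.3 ± 1.63 and 12.3 ± 0.846 CPM. Tulp3, which brings Gpr161 into the cilium, had 10.7 ± 2.25 and 10.1 ± 1.47 CPM, and Kif7, the kinesin that organises Gli proteins at the tip, 4.49 ± 1.18 and 4.57 ± 0.934 CPM (wild type and knockout; SD, n = 5 each). Their log2 fold changes were 0.11 (SE 0.15), -0.08 (SE 0.18) and 0.02 (SE 0.25), and 0.17, -0.05 and 0.20 with the GC offset. A change as large as that in Plk4 lies within 2 SE of the estimates for Arl13b, Gpr161 and Kif7.

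Intu and Fuz help assemble the base of the cilium. Intu was at 6.21, 6.27, 6.57, 4.33 and 5.17 CPM across wild type, and at 10.6, 4.86, 6.06, 5.76 and 5.76 CPM across knockout. KO2 alone stood above the wild-type range, and without it the log2 fold change went from 0.20 (SE 0.23) to -0.03 (0.17 with the GC offset). Fuz had 4.24 ± 0.984 and 4.63 ± 1.16 CPM (SD, n = 5 each), or a log2 change of 0.11 (SE 0.25; 0.29 with the GC offset), and its exons overlap 2 genes on the opposite strand. Exons of 14 of the 42 genes overlap an opposite-strand gene in the annotation and 2 overlap one on the same strand; Plk4, Cenpj, Cep57, Ccp110, Aspm and Ift172 are not among them.

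GC content moved with the fold changes of these genes. The transcripts of the 42 ran from 38.3% GC in Cep290 to 60.0% in Kif7, and 19 of them fell among the GC-poorest genes, those up to 46.8%, a range with 4478 of 13432 genes. Of these 19, 17 had higher means in knockout, as had 78.5% of all genes in that range. Of 16 genes between 46.8% and 53.1%, 9 had higher means (45.9% of all genes there), and of 7 genes above 53.1%, 3 had (26% of all). The median log2 fold changes of the 3 sets were 0.245, 0.01 and -0.02, against 0.20, -0.03 and -0.16 over all genes in the same ranges. With the GC offset they were 0.05, 0.01 and 0.10. Across the 42 genes, GC content and log2 fold change had a Pearson r of -0.52 and a Spearman rho of -0.54 (n = 42 genes, all from the same 10 libraries), against -0.46 and -0.50 over 13432 genes, and r was -0.03 after the offset. The 19 GC-poor genes had a median of 0.25, 0.17 and 0.19 log2 units above the 10-library mean in KO2, KO3 and KO8. The median was 0.04 in KO5, 0.02 in KO6 and 0.32 in WT2. It was 0.007 in KO4, 0.07 in WT3 and between -0.21 and -0.09 in the other unmarked wild-type libraries. In KO4 the 7 GC-rich genes had a median of 0.75. All genes of at least 55.6% GC averaged 0.06 there, a mean over another GC range.

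**Figure D4:**
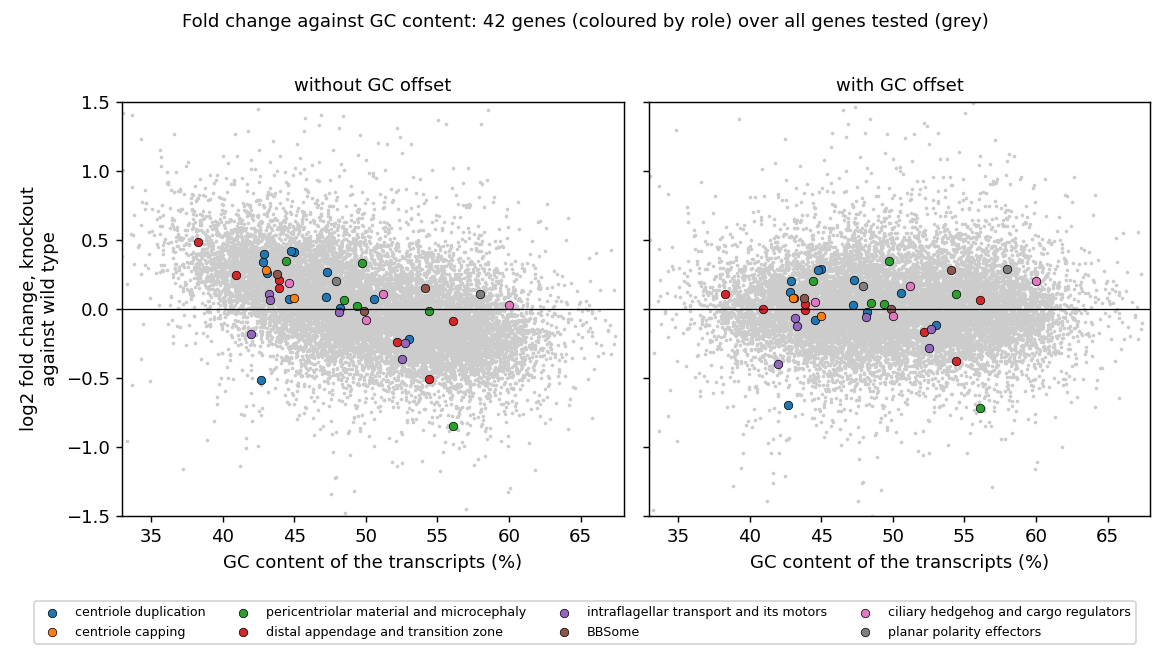
Log2 fold change between knockout and wild type against the GC content of the transcripts, for the 42 genes (coloured by role) over all genes tested (grey), without and with the GC offset; the vertical axis stops at 1.5 on either side. The downward slope on the left (r = -0.52 across the 42) is near level on the right (-0.03), and Sass6 and Ift80 stay low on the GC-poor side.

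The marked libraries did not follow the order of the group means for most of these genes. KO4 and WT2 stood in the reverse order for 28 of the 42 (66.7%), against 73.2% of all genes tested. The reverse order held for 7 of 12 duplication genes, 6 of 7 appendage and transition zone genes and 5 of 6 intraflagellar transport genes, and for 0 of the 2 planar polarity effectors. For Cep192, Cep63 and Rpgrip1l the order was that of the means. In 29 of the 42 genes the direction was the same in the 10-library fit, with the GC offset and in all 12 libraries. These fits share the same 10 libraries, so a shared direction is not independent evidence, and the share over all genes is not given.

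**Figure D5:**
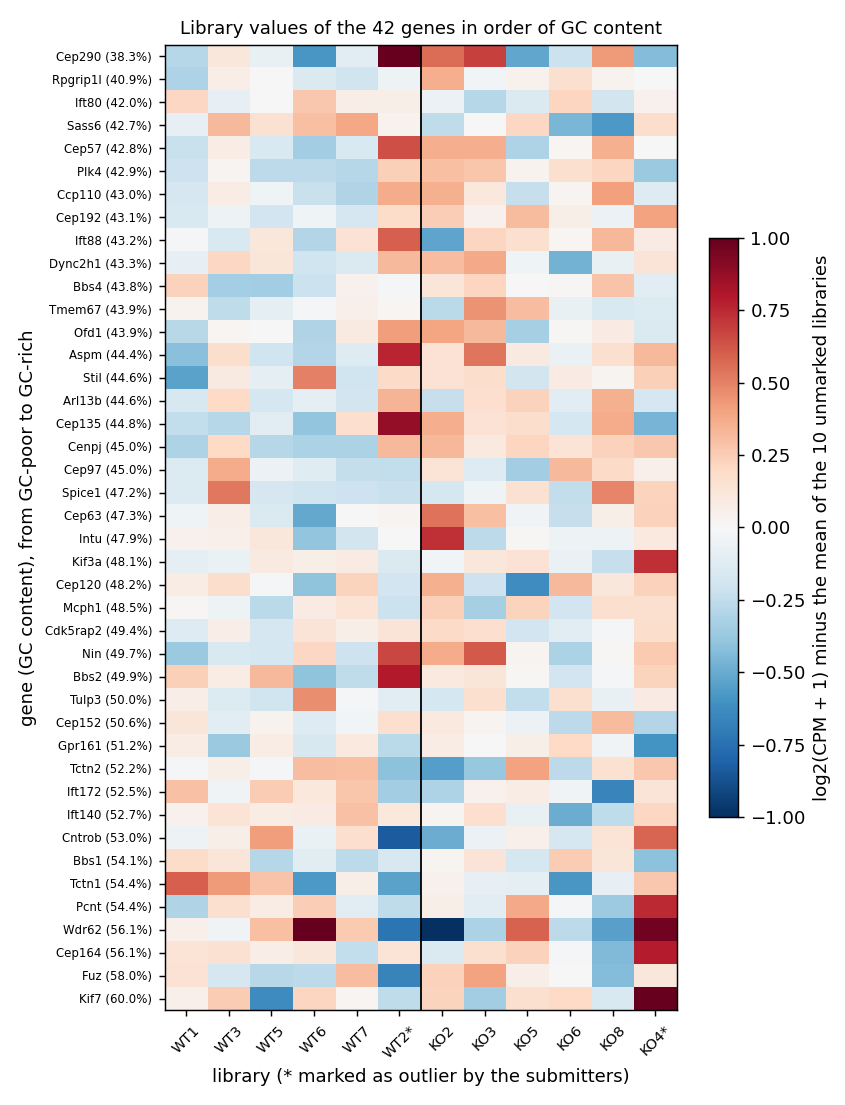
Log2(CPM + 1) of each gene in each library minus its mean over the 10 unmarked libraries, with genes ordered from GC-poor (top) to GC-rich (bottom), the colour scale ending at 1 log2 unit on either side, and the marked libraries starred. The upper rows are mostly above the mean in KO2, KO3, KO8 and WT2, and the lower rows are highest in KO4.

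Other genes of the same structures, from a list that holds none of the 42, held no calls either, where 0.0223% of all genes passed. Of 47 other centriole and centrosome genes, all tested, 4 were higher and 5 lower in knockout with an unadjusted p below 0.05. The shares over all genes were 11.8% and 9.97%. None passed the adjusted threshold in edgeR's test, and the median log2 fold change was 0.01. With the GC offset it was -0.09, with 4 higher and 9 lower, against 7.52% and 8.01% of all genes. Pcm1, the scaffold of the granules that surround the centrosome, had 59.2 ± 3.22 (wild type) and 83.3 ± 12.4 CPM (knockout; SD, n = 5 each), or a log2 change of 0.49 with all 5 knockout libraries above all 5 wild-type libraries (adjusted p = 0.124). Groups did not overlap, in either direction, for 2.35% of all genes. The centrin Cetn3 had 926 ± 159 and 1260 ± 277 CPM, a log2 fold change of 0.448 (0.135 with the GC offset). On the lower side were Tubgcp2, a subunit of the gamma-tubulin ring (47.1 ± 7.08 and 32.3 ± 6.77 CPM, log2 fold change -0.54, adjusted p = 0.128), and Ssx2ip (28.9 ± 3.66 and 22.9 ± 3.10 CPM). Tubgcp2 kept its direction with the GC offset (-0.46), and Pcm1 did at 0.26. The marked libraries were in reverse order for all 4, as for Pcm1, with WT2 at 91.8 and KO4 at 66.9 CPM.

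Of 70 other cilium genes tested among 71 listed, 8 were higher and 9 lower by that measure, against 11.8% and 9.97% of all genes. None passed the adjusted threshold in edgeR's test, and the median log2 fold change was -0.06. With the GC offset it was -0.08, with 4 higher and 6 lower, against 7.52% and 8.01% of all genes. Ttc30a1, a transport train subunit with close copies in the genome whose reads may be shared (30.9 ± 6.22 and 45.1 ± 9.80 CPM), and Rfx3, a factor that drives cilium genes (79.2 ± 14.8 and 119 ± 35.2 CPM), had the smallest p on the higher side. On the lower side were Sufu, which holds Gli proteins inactive (39.6 ± 4.83 and 29.9 ± 2.35 CPM, log2 fold change -0.40 and -0.25 with the GC offset, adjusted p = 0.131), and Rab3ip, an activator of the ciliary GTPase Rab8 (54.2 ± 4.47 and 44.0 ± 3.79 CPM). The marked libraries were in reverse order for Rfx3, with WT2 at 218 and KO4 at 65.5 CPM, and for Sufu, at 26.1 and 38.8 CPM. Of 7 genes of cilium disassembly, 1 was higher and 0 lower by the same measure, the microtubule depolymerase Kif2a at 125 ± 17.8 and 160 ± 27.5 CPM. With the GC offset the list had 0 higher and 0 lower, and the log2 fold change of Kif2a went from 0.35 to 0.10. Nedd9 was at 2.59 ± 1.27 and 3.15 ± 1.1 CPM, Aurka, the kinase that starts disassembly, at 45 ± 6.94 and 32.3 ± 15.5 CPM, and Kif24 at 4.86 ± 0.541 and 3.43 ± 1.23 CPM (SD, n = 5 each).

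The readouts of the hedgehog signal that the cilium relays had 1 of 6 higher at an unadjusted p under 0.05 and 0 lower, with or without the GC offset. Over all genes 11.8% were higher and 9.97% lower at that level, and 7.52% and 8.01% with the GC offset. Mycn was at 263 ± 31.4 and 335 ± 19.4 CPM, Ptch1 at 70.5 ± 7.39 and 87.4 ± 27.9 CPM, Gli1 at 19.9 ± 2.55 and 18.9 ± 4.09 CPM, Ccnd1 at 116 ± 29.2 and 102 ± 24.3 CPM and Hhip at 1.34 ± 1.14 and 1.17 ± 0.442 CPM (wild type and knockout; SD, n = 5 each). None passed the adjusted threshold in edgeR's test.

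Markers of other cells that could bring centriole or cilium transcripts were summed in each library. The 15 matched markers of multiciliated ependymal cells, which make many motile cilia, summed to 8.97 to 13.1 CPM in wild type and 9.66 to 15.3 CPM in knockout, with their defining factor Foxj1 at 0.379 ± 0.329 and 0.364 ± 0.224 CPM (SD, n = 5 each) and Tekt4 at 0 in all 10 libraries. None of the 6 that were tested had an unadjusted p under 0.05. Over all genes 11.8% were higher and 9.97% lower at that level, and 7.52% and 8.01% with the GC offset. Those shares apply to every marker count below, and lists this short were not tested against them. The 6 markers of cycling cells summed to 1080 to 1210 CPM in wild type and 1060 to 1330 CPM in knockout. At that level 2 of 6 were higher (Ccnb1, Bub1) and 0 lower. Of the others, Mki67 had a log2 fold change of 0.13, and Top2a, Cdk1 and Ccna2 had -0.13, -0.22 and -0.07. With the GC offset 1 was higher (Ccnb1, 0.27) and 1 lower (Top2a, -0.32), and Bub1 was at 0.03. Purkinje cell markers summed to 228 to 336 CPM in wild type and 290 to 503 CPM in knockout, with WT2 at 610 and KO4 at 273 CPM. Of the 5 tested, 3 were higher and 0 lower, and 1 and 0 with the GC offset, which took their median log2 fold change from 0.40 to 0.26 (0.145 in all 12 libraries). Markers of Bergmann glia and astrocytes summed to 576 to 977 CPM in wild type, 796 to 1230 CPM in knockout and 1990 CPM in WT2, with 1 of 8 higher and 0 lower (0 and 0 with the GC offset). Of the 6 oligodendrocyte lineage markers tested, 3 were lower and 0 higher (2 and 0 with the GC offset). The sums of the list were 302 to 370 CPM in wild type against 293 to 314 in knockout. Most of each sum was Pdgfra, at 248 ± 14.7 and 250 ± 9.93 CPM. Olig1 (2.62 and 3.28 CPM), Olig2 (2.52 and 1.75 CPM) and Sox10 (0.519 and 0.191 CPM) were low. Of the choroid plexus markers, Ttr (0.27 and 0.0357 CPM in wild type and knockout), Folr1 (0.0566 and 0.0795 CPM) and Kl (1.13 and 0.588 CPM) were near 0. The list held in addition Otx2, which granule precursors also express, at 82.4 and 65.5 CPM, and Otx2 was the 1 marker lower of the 2 tested, with or without the GC offset. Endothelial cells, meninges and microglia had 0, 1 and 0 markers higher and 0 lower, and 0, 0 and 1 higher with the GC offset. Of the granule lineage lists, precursors had 1 of 6 higher and 1 lower, early neurons 2 of 5 higher and 2 lower, and mature neurons 1 of 2 higher. The higher precursor marker was Mycn, already counted among the hedgehog readouts, and the lower one was Barhl1. Gli1 and Ccnd1 are also in both lists. The offset left the counts of precursors and mature neurons as they were and gave 0 higher and 0 lower for early neurons. All these cells carry centrioles, and their part in the values above was not tested.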

How the data were processed

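The authors deposited 1 table of whole-number read counts per gene for each library, in HTSeq output format and not normalized. The submitters' processing notes list build mm10 with STAR 2.5.3a, cutadapt 1.16, HTSeq 0.6.1 and DESeq2, but settings, annotation release and strand option were not given in the labels. Libraries were made with the NEBNext Ultra RNA kit, per the labels' protocols. That kit, as background knowledge and not from the labels, does not mark strand. HTSeq's 5 summary rows entered no library size or test, and multiply aligned records were 64.4% to 67.6% of each table's total. Identifiers of 53274 genes were matched to GENCODE M21 (GRCm38, also called mm10), which gave symbols, exon lengths and, from its transcripts, GC content.

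Counts were filtered with filterByExpr (minimum count 10), scaled with TMM factors and tested with edgeR 4.0.16 (quasi-likelihood, robust; limma 3.58.1, R 4.3.3), with Benjamini-Hochberg adjustment over all genes and a threshold of 0.05. SEs come from the log2 fold change and the F statistic. CPM use the filter and factors of all 12 libraries. Exact permutation tests are two-sided, on log2 of CPM plus 1. The GC offset is each library's spline (5 degrees of freedom) of log2 CPM on GC content. Alternatives were DESeq2 1.42.0, no filter, all 12 libraries, KO2 as wild type, the replicate number as a block, the GC offset and each library left out. Within groups, all 30 pairs of libraries differed beyond sampling noise (chi-square over its degrees of freedom, 6.51 to 94.1). The procedure was tested on simulated counts of 5 wild-type and 5 knockout libraries, without GC differences between libraries. At an adjusted p under 0.05 it recovered 38.8% of genes changed 1.5-fold, 78.1% changed 2-fold and 95.3% changed 4-fold. Of its calls, 2.14% were false. Smaller changes, such as the 1.32-fold of Plk4, were not simulated.

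The genes, lists and tests were chosen with earlier results of these data known. Library values are given for 16 genes: the smallest p in each of the 8 role groups, then the next smallest p. Of the other lists, the 2 smallest p in each direction are named, and the hedgehog readouts, of which 1 is not reported here.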

Additional observations from a re-analysis of the deposited data

Results flagged for a closer look

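The 84 groups of 5 libraries (42 genes in 2 genotypes) share the same 10 libraries, so they are not independent and the count of flagged groups was not tested. In 9 of the 84 groups 1 library stood far from the other 4, a gap that chance alone gives in about 1 group in 20. WT3 was that library in 5 of the 9, each time as the highest wild-type value: Plk4 at 133 CPM against 107 to 113 in the others, Cenpj at 29.6 against 20.4 to 20.8, Spice1 at 14.6 against 8.37 to 8.82, Cep97 at 33.6 against 21.6 to 24.7 and Arl13b at 28 against 21.2 to 22.6 CPM. Without WT3 Plk4 had a log2 fold change of 0.46 (adjusted p = 0.0723) in edgeR's test. Wdr62 was at 9.53 CPM in WT6 against 3.28 to 4.41 in the other wild-type libraries, and Cep164 at 5.75 CPM in WT7 against 7.38 to 7.91. In knockout, Tctn1 was at 1.23 CPM in KO6 against 2.14 to 2.43 in the others, and Intu at 10.6 CPM in KO2 against 4.86 to 6.06.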

How the results depend on the processing

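Of the 42 genes, 0 passed in edgeR's test as reported, in all 12 libraries, with KO2 as wild type, with the GC offset (10 or 12 libraries, the latter chosen after seeing the data) and with the replicate block. Plk4 alone (1 gene) passed in DESeq2 and without the filter. Leaving out 1 library gave 0 to 7 passing, the 7 without KO5 (Plk4, Cenpj, Cep57, Ccp110, Aspm and Cep290 as higher, Wdr62 as lower), a fit in which 3102 genes passed. Over all genes 3 passed as reported, 449 in DESeq2, 965 without the filter, 1 in all 12 libraries, 0 with KO2 as wild type, 0 with the replicate block and 5 with the GC offset, and 0 to 3102 with 1 library left out. The 5 higher and 2 lower genes at an unadjusted p under 0.05 became 1 and 0 in all 12 libraries, with or without the GC offset, with KO2 as wild type and with the replicate block, and 2 and 2 with the GC offset. They ranged from 3 to 9 and from 0 to 3 with 1 library left out. Shares over all genes at that level are given above only for the fit as reported, the GC offset and all 12 libraries. The counts in the other fits are therefore not read as a trait of the 42. The median log2 fold change of the 42 stayed above 0, from 0.02 to 0.12. Some genes changed sign, among them Cep290, Rpgrip1l, Cntrob and Intu, whose log2 fold changes as reported were 0.48, 0.25, -0.22 and 0.20, and the cause was not tested. In all 12 libraries Cep152 was at -0.028, Cntrob 0.048, Pcnt 0.188, Cep164 0.09, Ift88 -0.022 and Kif3a 0.158. With KO2 as wild type Cep120 was at -0.149, Cdk5rap2 -0.056, Mcph1 -0.048, Dync2h1 -0.067, Kif7 -0.082 and Intu -0.216. With the GC offset Stil was at -0.079, Cep120 -0.02, Cep97 -0.051, Pcnt 0.104, Cep164 0.062, Rpgrip1l -0.003, Tmem67 -0.008, Ift88 -0.066, Dync2h1 -0.125 and Bbs2 0.002. With that offset in 12 libraries Cep152 was at -0.003, Cntrob 0.104, Pcnt 0.232, Cep164 0.123, Cep290 -0.033, Ift88 -0.05, Kif3a 0.14 and Dync2h1 -0.036. With the replicate block Stil was at -0.147, Cep152 -0.035, Cep120 -0.101, Spice1 -0.111, Cep97 -0.127, Cdk5rap2 -0.052, Mcph1 -0.015, Cep164 0.015, Kif3a 0.039, Dync2h1 -0.087 and Intu -0.036. The numbers 3, 5 and 6 are shared by both groups. Deviations of same-numbered libraries correlated at 0.11, -0.05 and 0.09, against a median of -0.01 for differently numbered ones. Of these 6 libraries, 0 correlated best with its own number. So few shared numbers cannot tell whether a number marks a pair of libraries. With 1 library left out the ranges of those that changed sign were Bbs2 -0.109 to 0.075, Cdk5rap2 -0.021 to 0.072, Cep120 -0.088 to 0.135, Cep152 -0.03 to 0.15, Cep164 -0.171 to 0.02, Cep97 -0.001 to 0.197, Dync2h1 -0.03 to 0.175, Fuz -0.008 to 0.243, Intu -0.028 to 0.296, Kif3a -0.067 to 0.032, Kif7 -0.124 to 0.122, Mcph1 -0.003 to 0.15, Pcnt -0.134 to 0.072, Spice1 -0.064 to 0.271, Stil -0.042 to 0.239 and Tulp3 -0.14 to 0.043. Low counts limit Tctn1 and Wdr62, at 10 and 8 reads in their lowest library.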
